A study of Mus musculus with 32 samples.

Results

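The 16 libraries described here are those made from 10 ng and from 1 ng of total RNA, 16 of the 32 libraries of the series. They were chosen by the input amount in the sample title, 8 libraries per amount, and compared as 8 against 8. The question is which kinds of genes were lost, kept or over-represented when 10 ng was cut to 1 ng. In each group of 8, 4 libraries came from wild-type (WT) animals and 4 from homozygous GFAP-IL6 animals, in which an interleukin 6 transgene is driven by the promoter of the astrocyte gene Gfap. All animals were C57BL/6 mice of 3 months. Their frontal cortex was frozen after dissection, and RNA was purified with Trizol and an RNeasy column. No treatment was given. The labels do not say how many animals were used, whether RNA was pooled, or whether a number stands for 1 RNA sample used at both amounts, so the p-values below measure the spread between libraries, which may be technical.

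In 3'Pool-seq an oligo-dT primer starts cDNA synthesis at poly(A) stretches, so that most reads come from the last part of a transcript. When the reverse transcriptase reaches the end of the template it adds a few C residues, to which a template switching oligo anneals, and only cDNA that carries both ends can be amplified. A transcript that is not captured in this first reaction cannot be recovered by deeper sequencing, and one that is captured is copied many times by PCR. The libraries carry no molecular identifiers, so copies of the same molecule cannot be told from separate molecules, and a count is a count of reads. In the paper's protocol samples are pooled right after this first reaction, and the later steps act on the pool. In a plate of HepG2 cells the paper found that pools differed and adjusted for it. The labels here do not give the pool of each library, so a difference between pools was not tested.

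The 2 oligonucleotides that define this first reaction are shown because every count below starts from them. In the first of the reverse transcription primers the capitals mark the oligo-dT stretch of 24 bases, which is followed by the anchor VN (not shown). In the template switching oligo the capitals mark the 3 bases, riboguanosines in the original, that anneal to the added C residues.
RT primer: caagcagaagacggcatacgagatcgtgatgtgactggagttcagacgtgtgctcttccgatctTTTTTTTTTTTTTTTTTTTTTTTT
Template switching oligo: aagcagtggtatcaacgcagagtacatGGG

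Total counts were 1064514 to 9840302 at 10 ng and 261378 to 2800270 at 1 ng. The 10 ng library had 2.81 to 4.13 times the total of the 1 ng library with the same genotype and number, and replicate 2 was the lowest of its group at both amounts and in both genotypes. All 15 neuron markers and all 14 astrocyte markers of the lists used were found in each library. WT replicate 3 carried choroid plexus RNA, with 0.344% of counts in the 6 choroid plexus markers at 10 ng and 0.343% at 1 ng, against at most 0.0328% in the other WT libraries of both amounts. In bulk tissue a different number of cells of a type and a different amount of RNA per cell cannot be told apart. Il6, the transgene's product, had no count in GFAP-IL6 replicate 3 at 1 ng and 13 counts in WT replicate 3 at 1 ng, so at this input the level of Il6 did not check the genotype label of those 2 libraries.

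Fewer genes were detected at 1 ng than at 10 ng even when both libraries of a number were brought to the same depth. Depth was matched by the expected number of genes with at least 1 count if the 10 ng library were reduced to the total of the 1 ng library of the same genotype and number. The matched number at 10 ng ran from 11593 to 15197 genes, with a mean of 13780 ± 1281 (SD, n = 8). At 1 ng it ran from 9647 to 12899 genes, with a mean of 11654 ± 1164 (SD, n = 8). The ranges of the groups overlapped because depth differed between replicate numbers, but every 1 ng library had fewer genes than its own matched 10 ng library. The mean difference was -2126 genes, a change of -15.4%, with an SD of 141 between the 8 differences (two-sided exact permutation test, 8 against 8, p = 0.00404). In WT the difference was -2123 ± 145 genes and in GFAP-IL6 -2130 ± 159 (SD, n = 4 each), and this difference between genotypes was not past an exact permutation test (p = 0.971, where the smallest possible is 0.0286). With a minimum of 2 counts in place of 1 the difference was -1604 genes, lower in 8 of 8 comparisons by number, and did not pass the same test (exact permutation p = 0.0538). That test takes in the spread of depth between numbers, which matching within numbers leaves in place. The SD between the 8 differences was 198 genes, and an exact sign-flip test over them gave p = 0.00781, the smallest it can give. With all 16 libraries at their lowest total and a minimum of 1 count, the difference was -1292 genes (exact permutation p = 1.55e-04).

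**Figure D1:**
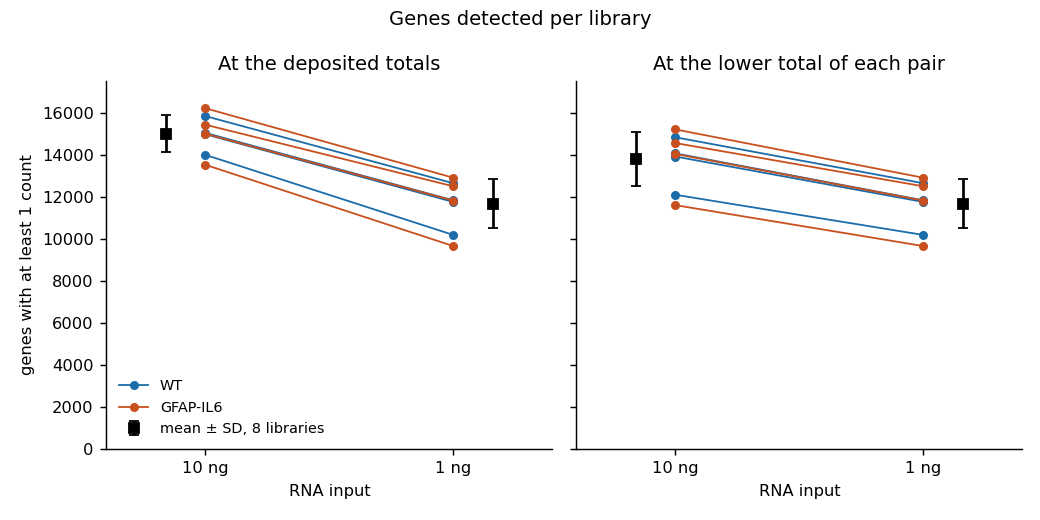
Number of genes with at least 1 count (y axis) in each library at 10 ng and 1 ng (x axis), at the deposited totals (left) and with each 10 ng library brought to the total of its 1 ng partner (right). Lines join libraries of the same genotype and number, and black squares are means ± SD of 8 libraries. All 8 lines fall on both sides, and on the right the mean difference is -2126 ± 141 genes (SD).

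The loss fell on genes of low abundance and was graded by abundance. Genes were sorted by their mean level in the 50 ng libraries, which take no part in the comparison, in CPM (counts scaled to a common library total, not corrected for gene length). Of 1153 genes at 1 to 2 CPM, a 10 ng library at matched depth detected 64.0% ± 21.9 and a 1 ng library 30.7% ± 11.5 (SD, n = 8). Of 1812 genes at 2 to 5 CPM the shares were 84.1% ± 18.5 and 53.6% ± 15.9. Of 1757 genes at 5 to 10 CPM they were 95.2% ± 8.30 and 77.5% ± 15.8. The gap narrowed above this level. At 10 to 20 CPM 98.9% of genes were detected at 10 ng and 91.4% at 1 ng, at 20 to 50 CPM 99.9% and 98.4%, and from 100 CPM upward 100% at both amounts.

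The average level of these groups of genes differed little, while the fitted change of the typical gene was below 0. Genes at 2 to 5 CPM averaged 3.28 CPM over the 10 ng libraries and 3.18 CPM over the 1 ng libraries, zeros included, and their median log2 fold change in edgeR was -0.40. For genes at 1 to 2 CPM the averages were 1.43 CPM and 1.36 CPM, and the median log2 fold change was -1.13. At 10 to 20 CPM the median was -0.09, and at 100 to 1000 CPM 0.00. The share of counts held by the 10 genes highest at 50 ng was 19.3% ± 3.11 at 10 ng and 19.2% ± 3.28 at 1 ng (SD, n = 8), and that of the 1000 highest was 62.5% ± 1.41 and 62.7% ± 1.67, differences within the SD (exact permutation tests, p = 0.995 and 0.794).

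Replicates of low genes differed far more at 1 ng. The coefficient of variation (CV) between replicates that remained after counting error was taken out was 0.50 at 10 ng and 1.16 at 1 ng for genes at 2 to 5 CPM, and 0.28 and 0.68 for genes at 10 to 20 CPM. For genes at 100 to 1000 CPM it was 0.15 and 0.20, and above 1000 CPM 0.30 and 0.32. The common biological CV that edgeR estimated over 13471 genes was 0.25 at 10 ng, 0.21 at 10 ng after thinning to the 1 ng totals, and 0.69 at 1 ng. The correlation of log2(CPM + 1) across genes between replicates of a group was 0.919 on average at 10 ng with thinned counts and 0.813 at 1 ng (12 pairs each). Genes are not independent replicates, and these correlations are descriptions of the libraries.

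**Figure D2:**
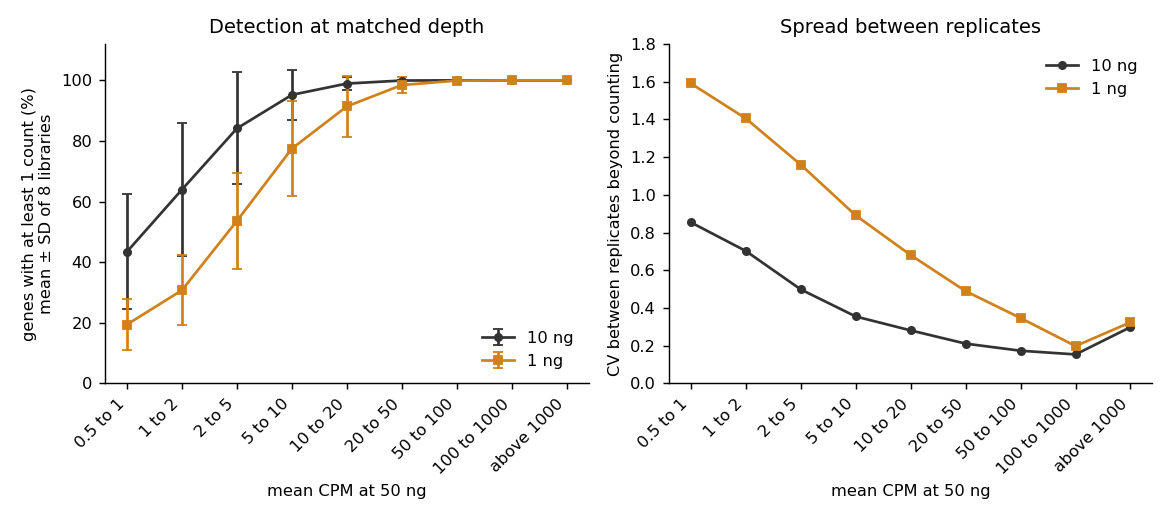
Left, the percent of genes detected at matched depth (y axis, mean ± SD of 8 libraries) in classes of mean CPM at 50 ng (x axis). Right, the CV between replicates beyond counting error (y axis) in the same classes. The 10 ng and 1 ng curves lie apart below 20 CPM, and above 100 CPM they lie together on the left and close together on the right (0.15 and 0.20 at 100 to 1000 CPM).

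Which genes dropped out differed from library to library. Of 13471 genes above 1 CPM at 50 ng, 10183 (75.6%) had a count in all 8 libraries of 10 ng thinned to the 1 ng totals, and 7688 (57.1%) in all 8 libraries of 1 ng. A gene missing from every 1 ng library was rare. There were 129 such genes (0.958%), against 1 in the thinned 10 ng libraries and 0 in the 10 ng libraries as deposited. Of the 129, 89 had a count in at least 1 of the 8 libraries of 0.5 ng, an amount still lower. Of genes above 3 CPM at 50 ng only 3 were missing at 1 ng, and all 3 were present at 0.5 ng. Above 5 CPM none was missing.

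The genes with the highest level at 50 ng among those at 0 in all 8 libraries of 1 ng have different known roles. They were Zfp128, which encodes a zinc finger protein, Polm, a DNA polymerase of end joining repair, Ppic, a cyclophilin, Pdgfd, a platelet-derived growth factor, and Ovgp1, an oviductal glycoprotein. Their means at 10 ng were 3.39 ± 1.82, 1.39 ± 0.545, 2.19 ± 1.39, 2.87 ± 3.34 and 1.81 ± 1.41 CPM in this order (SD, n = 8). Zfp128, Polm and Pdgfd were present in 8 of 8 libraries of 10 ng, and Ppic and Ovgp1 in 7. At 0.5 ng Zfp128 was seen in 2 libraries, Polm in 3, Ppic in 2, Ovgp1 in 1 and Pdgfd in 0.

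Genes seen at 1 ng alone were few, and none was shared by most replicates. These counts are at the deposited depths, with the totals at 10 ng higher as given above. In all, 3130 genes had counts at 10 ng and were at 0 in all 8 libraries of 1 ng. Of 14617 genes at 0 in all 8 libraries of 10 ng, 266 had a count at 1 ng, 231 of them in 1 library only. None was present in 5 or more. The gene seen most often, in 4 libraries, was Fbxo24, an F-box gene, at 0.804 ± 1.03 CPM (SD, n = 8). Genes at 0 in one library and at 10 CPM or more, with at least 5 counts, in its partner numbered 1 to 48 per number when the gene was at 1 ng only. They numbered 28 to 899 when it was at 10 ng only, with the highest value in GFAP-IL6 replicate 2, the library with the lowest total.

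Several classes of non-coding and unnamed genes lost more than protein-coding genes, and their share is read beside their abundance. At matched depth, the number of genes detected at 1 ng was 84.6% of the number at 10 ng. Below, kept stands for this ratio of numbers, in which the genes need not be the same. For protein-coding genes it was 86.5%, for lincRNAs 58.2% (410 ± 113 to 238 ± 58.5 genes, SD, n = 8), for antisense RNAs 51.1% (280 ± 89.0 to 143 ± 42.9), for sense intronic RNAs 48.7% and for small nucleolar RNAs 57.3%. Gene models named only with the prefix Gm kept 54.2%, RIKEN models 70.8%, and the Zfp zinc finger genes, a large family of transcription factors, 78.6%. Other classes differed. The miRNAs kept 60.2%, miscellaneous RNAs 64.4% and pseudogenes 67.0%, while mitochondrial tRNAs kept 99.3% and nuclear rRNA genes 96.8%. The rRNA value rests on few genes, a mean of 3.75 per library at 10 ng. At 2 to 5 CPM the classes named next lay closer together. In this range 1 ng libraries detected 53.9% of 1581 protein-coding genes, 52.0% of 119 lincRNAs, 50.7% of 71 antisense RNAs, 50.8% of 123 Gm models and 52.4% of 68 Zfp genes, each with an SD over libraries of 15 or more percentage points. Of these classes the sense intronic RNAs stood lowest, at 39.0% ± 23.3 of 17 genes. At 5 to 10 CPM the detected shares were 77.8% for protein-coding genes, 72.0% for lincRNAs, 69.4% for antisense RNAs, 74.4% for Gm models, 73.3% for RIKEN models and 78.2% for Zfp genes, and at 10 to 20 CPM Zfp genes stood at 85.6% against 91.4% of all genes, a description with no test. Whether counting used the strand of the reads is not stated, so antisense and sense intronic counts cannot be told apart from those of the genes they overlap.

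Classes of abundant genes lost few members. All 15 neuron markers and all 14 astrocyte markers were found in each 1 ng library. The number of ribosomal protein genes detected was 99.0% of that at 10 ng, and that of nuclear genes of oxidative phosphorylation 97.6%. Lists with members near the detection limit lost some. Of 11 endothelial markers 9.92 ± 1.42 were found at 10 ng and 7.88 ± 1.46 at 1 ng (SD, n = 8). The vascular growth factor receptor gene Kdr was in 8 libraries of 10 ng and 1 of 1 ng, and Tek, the angiopoietin receptor gene, was in 2 libraries of 1 ng. Monoamine and muscarinic receptors kept 77.1% of the number found at 10 ng, cytokines and chemokines 80.2%, and the replication-dependent histones 65.2%. Potassium, sodium and calcium channels kept 88.5%. Of the oligodendrocyte markers, Sox10, a transcription factor of that lineage, was at 12.1 ± 3.85 CPM at 10 ng and at 3.90 ± 3.05 CPM at 1 ng, a difference that edgeR's quasi-likelihood test did not call (Benjamini-Hochberg adjusted p = 0.227).

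Few genes passed edgeR's test of a change in level. The fit uses 1 dispersion per gene for both amounts, while the common biological CV was 0.25 at 10 ng and 0.69 at 1 ng. A gene that did not pass is therefore not shown to be unchanged. Of 13471 genes tested, 7 (0.052%) changed at least 2-fold past a Benjamini-Hochberg adjusted p of 0.05 in edgeR, and all 7 were lower at 1 ng. With DESeq2 the same thresholds called 55 genes, 52 lower and 3 higher, which included the 7. By adjusted p alone 30 genes passed (0.223%), of which 16 were lower (0.119%) and 14 higher (0.104%), and 1515 had an unadjusted p under 0.05. The balance depended on the scaling, with 12 lower and 26 higher under DESeq2 size factors and 14 lower and 4 higher under library totals. The median log2 fold change over all genes tested was -0.07. These counts rest on all 8 numbers together. When the pair of libraries with the same genotype and number was left out in turn, 3 to 7 genes passed both thresholds, and of the 30 genes only Eef1a1, Pgk1, mt-Nd3, Eno1 and Hbb-bs passed in all 8 rounds. Those outside the 7 are named here after their values were seen.

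Eef1a1, translation elongation factor 1 alpha, had the smallest p. Its level at 10 ng was 176 to 276 CPM with a median of 234, and at 1 ng 61.2 to 119 CPM with a median of 81.5, so that the groups did not overlap. The log2 fold change was -1.35 ± 0.14 (SE, edgeR, Benjamini-Hochberg adjusted p = 3.27e-06). It is on chromosome 9 (GRCm38, chr9:78478449-78489151, minus strand). Groups did not overlap for 72 of the genes tested (0.534%), 64 of them lower (0.475%) and 8 higher (0.0594%).

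The glycolysis enzyme genes Pgk1 and Eno1 were among the genes that fell. Pgk1, phosphoglycerate kinase, was at 47.2 to 63.1 CPM at 10 ng (median 54.1) and at 7.65 to 28.1 CPM at 1 ng (median 19.2), with no overlap. Its log2 fold change was -1.48 ± 0.24 (SE, edgeR, adjusted p = 0.00301). Eno1, an enolase, was at 195 to 326 CPM (median 268) and at 72.7 to 232 CPM (median 137), which overlap, and its log2 fold change was -0.89 ± 0.15 (SE, adjusted p = 0.00478). Of 16 glycolysis genes, all tested, these 2 passed by adjusted p, against 0.119% of all genes tested as lower. In comparisons by number 5 of the 16 were lower in all 8, against 2.61% of all genes tested. These shares over all genes are not matched for abundance. Gapdh, Hk1 and Aldoa were lower in all 8 but did not pass, with log2 values of -0.55, -0.40 and -0.35. Tpi1 at -0.00 and Gpi1 at 0.03 lay near 0. The list's median was -0.18 beside -0.07 over all genes, and 12 members were negative (11 to 13 over the settings named below for mitochondrial genes). The class held 0.711% ± 0.106 of counts with 10 ng and 0.628% ± 0.0661 with 1 ng (SD, n = 8, exact permutation test, adjusted p = 0.305 over 37 classes).

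The other genes past both thresholds were Gstp1, Gm8797, mt-Nd3, Zfp128 and Mre11a. Gstp1, a glutathione transferase, was at 57.2 to 90.5 CPM at 10 ng (median 77.2) and at 13.7 to 65.5 CPM at 1 ng (median 25.6), and its groups overlapped (log2 fold change -1.37 ± 0.25, SE, adjusted p = 0.0148). It lost the call without WT replicate 1, without WT replicate 4 and without GFAP-IL6 replicate 3. Gm8797, a predicted gene, went from 39.3 ± 7.02 to 14.9 ± 6.89 CPM (SD, n = 8), and lost the call whichever number was left out. Zfp128 had 157 counts over the 8 libraries of 10 ng and 0 at 1 ng, so that its fitted fold is no bound. Mre11a, a nuclease of double-strand break repair, had 234 counts at 10 ng and 5 at 1 ng, in 3 libraries. These 2 genes lost the call whichever number was left out.

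Mitochondrial transcripts split by kind. The mitochondrial genome encodes mRNAs of the respiratory chain, rRNAs and tRNAs, which are cut from long precursors and lie side by side. Of 37 such genes, 25 passed the filter on abundance. All 15 tRNA genes that passed had a positive log2 fold change, with a median of 0.48, and 10 of them were higher in all 8 libraries of 1 ng than in the 10 ng library of their number, a pattern seen in 0.817% of all genes tested. Of the 8 mRNA genes, 7 were lower in all 8, against 2.61% of all genes tested, and the remaining one, mt-Nd6, had a log2 fold change of -0.01. By adjusted p the tRNA genes mt-Ti (0.64 ± 0.13, SE, edgeR, adjusted p = 0.0269) and mt-Ts2 (0.72 ± 0.15, adjusted p = 0.0326) were higher, and mt-Nd3 (-1.20 ± 0.17, adjusted p = 3.18e-04) and mt-Nd1 (-0.27 ± 0.06, adjusted p = 0.038), subunits of complex I, lower. With 1 number left out, mt-Ti kept its call in 2 of 8 rounds, mt-Nd1 in 1 and mt-Ts2 in 0. The call of mt-Nd3 held in all 8 rounds and was lost with limma voom (adjusted p = 0.0609).

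The level of mt-Nd3 was 260 to 523 CPM at 10 ng (median 406) and 120 to 227 CPM at 1 ng (median 147), with no overlap. That of mt-Ti was 171 to 351 CPM at 10 ng (median 231) and 254 to 468 CPM at 1 ng (median 361), which overlap. The share of the mitochondrial tRNAs together went from 0.318% ± 0.0552 with 10 ng to 0.440% ± 0.0893 with 1 ng (SD, n = 8), higher in 8 of 8 comparisons by number and not past the test (exact permutation, adjusted p = 0.0604), although they passed with counts outside mitochondrial genes as the denominator (adjusted p = 0.0216). All mitochondrial genes together held 15.8% in both. Most of this was in the 2 mitochondrial rRNA genes, with 9.64% ± 2.81 at 10 ng and 10.4% ± 3.20 at 1 ng (SD, n = 8). The rRNA share was higher in 7 of 8 comparisons by number and did not pass (exact permutation test, adjusted p = 0.876). At 50 ng the tRNAs held 0.394% and at 0.5 ng 0.479% of counts, so that by group mean the 10 ng libraries were the lowest of the 4 amounts, a description with no test.

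The 2 tRNAs that passed in edgeR with all libraries are shown because their class was uniform in direction. All 15 members were positive under each of the 7 settings of scaling, test and depth in which the family was examined. These were TMM, DESeq2 size factors and library totals in edgeR, the DESeq2 test, limma voom, the replicate block and thinned counts. Of the mRNAs 8 of 8 were negative in 4 of them and 7 of 8 in the other 3 (DESeq2 size factors, the DESeq2 test and voom), where mt-Nd6 turned positive. Both tRNAs are on the plus strand of the mitochondrial genome, mt-Ti with 69 bases at chrM:3706-3774 and mt-Ts2 with 59 bases at chrM:11613-11671 (GRCm38). The start of mt-Ti lies inside mt-Nd1, which ends at base 3707, so that a higher and a lower gene adjoin.
mt-Ti: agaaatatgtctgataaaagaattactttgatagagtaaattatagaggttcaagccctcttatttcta
mt-Ts2: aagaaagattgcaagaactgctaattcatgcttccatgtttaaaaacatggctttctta

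**Figure D3:**
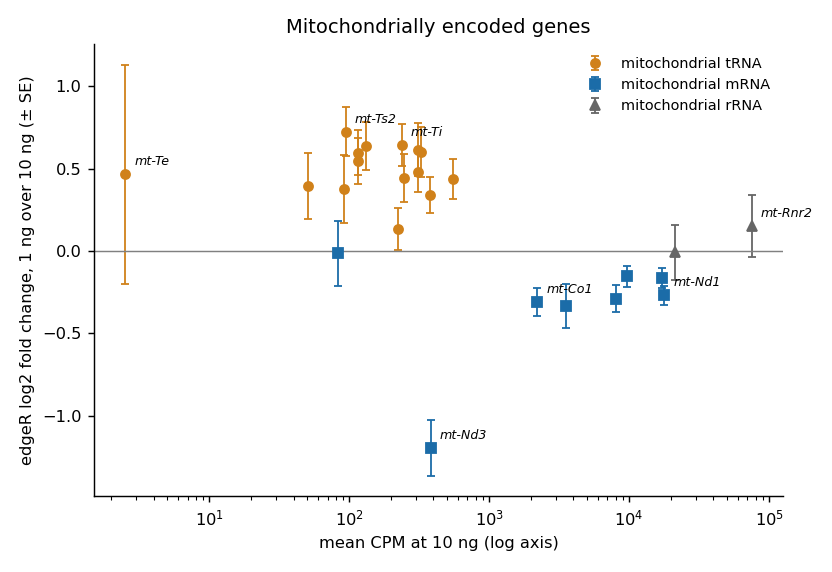
edgeR log2 fold change of 1 ng over 10 ng (y axis, ± SE) against the mean CPM at 10 ng (x axis, log scale) for the 25 mitochondrial genes tested. All 15 tRNAs lie above 0 and all 8 mRNAs below (mt-Nd6 lies above 0 with DESeq2 size factors, the DESeq2 test and voom), with mt-Nd3 lowest at -1.20 and mt-Ts2 highest at 0.72.

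Red blood cell transcripts and nuclear rRNA genes were over-represented at 1 ng. Hbb-bs, a beta globin, was at 203 to 323 CPM at 10 ng (median 258) and at 369 to 614 CPM at 1 ng (median 477), with no overlap (log2 fold change 0.86 ± 0.12, SE, edgeR, adjusted p = 2.83e-04). The other globins did not pass and had positive values, in all of the 7 settings as well, with log2 values of 0.79 for Hba-a2, 0.68 for Hbb-bt and 0.33 for Hba-a1, and they share sequence with each other. Alas2, the erythroid enzyme of haem synthesis, was present in 8 libraries of 10 ng and 2 of 1 ng. The 5 markers together took 0.0353 to 0.0592% of counts at 10 ng and 0.0591 to 0.102% at 1 ng, a ratio of means of 1.66 (exact permutation test, adjusted p = 0.00575 over 37 classes). The part of blood in the tissue was not tested. At 50 ng their share was 0.0402% and at 0.5 ng 0.0558%.

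The rRNA genes of the nuclear genome rose from 0.00772% ± 0.00102 to 0.0135% ± 0.00288 of counts (SD, n = 8), a ratio of 1.74, and the groups did not overlap (exact permutation test, adjusted p = 0.00575). Of 354 such genes 15 had a count and 3 were tested. n-R5-8s1, a copy of 5.8S rRNA, carried most of the change, from 39.7 ± 6.01 to 75.1 ± 19.1 CPM (log2 fold change 0.92 ± 0.20, SE, edgeR, adjusted p = 0.0345). Gm24601 had a value of 0.74, and Rn18s-rs5 one of -0.05. The share at 50 ng was 0.00688% and at 0.5 ng 0.0131%. Solute carriers, the transporter family of 372 genes, fell from 1.17% ± 0.0352 to 1.10% ± 0.0439 of counts (adjusted p = 0.0479, exact permutation), with a lower share in 8 of 8 comparisons by number. No member of it passed alone, Slc1a2, the glial glutamate transporter, being at -0.23 and Slc25a4, an ADP/ATP carrier, at -0.09 on the log2 scale. None of these 3 classes passed when replicate 2 of both genotypes was left out (adjusted p = 0.0801, 0.0801 and 0.107), where an exact permutation test of 6 against 6 libraries cannot go below p = 0.00216.

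**Figure D4:**
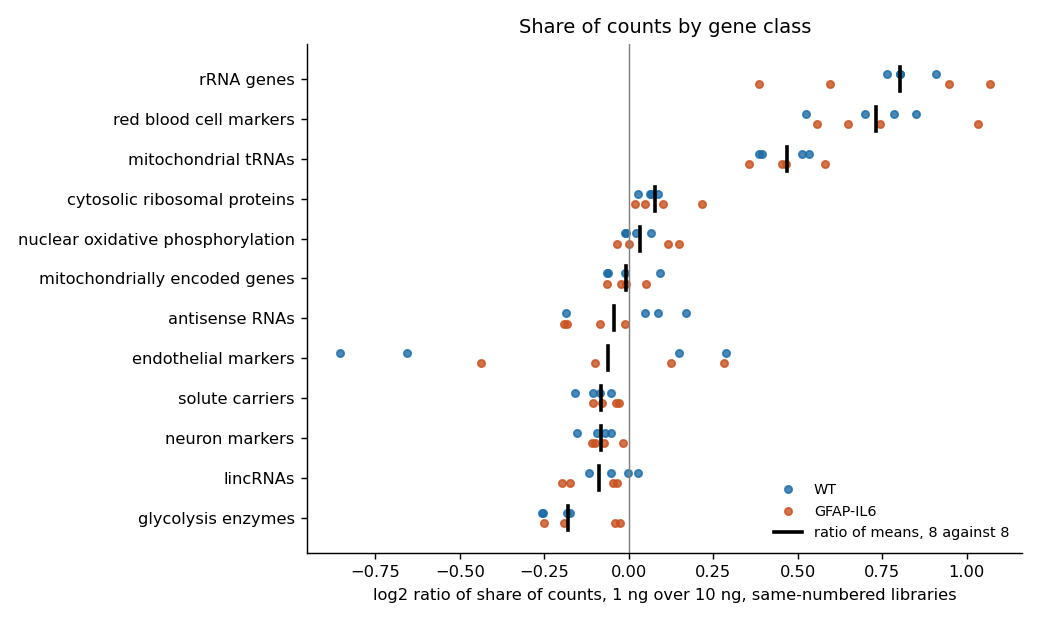
Log2 ratio of the share of counts, 1 ng over 10 ng (x axis), for 12 gene classes (y axis). Points are the 8 comparisons of libraries with the same genotype and number, and black bars are ratios of the means of 8 against 8. The rRNA genes, red blood cell markers and mitochondrial tRNAs lie right of 0 in all 8, and solute carriers, neuron markers and glycolysis enzymes left of 0 in all 8.

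Ribosomal protein genes went both ways. Of 83 tested among 86, Rpl37 (0.54 ± 0.10, SE, edgeR, adjusted p = 0.0148), Rpl31 (0.48 ± 0.10, adjusted p = 0.0326) and Rps27 (0.46 ± 0.10, adjusted p = 0.0345) were higher, and Rpl41 (-0.47 ± 0.10, adjusted p = 0.0345) lower. Rpl31 was at 275 to 347 CPM at 10 ng and 368 to 502 CPM at 1 ng, and Rpl41 at 653 to 838 CPM and 484 to 590 CPM, with no overlap in either. In comparisons by number 13 of the 83 were higher in all 8, against 0.817% of all genes tested. Lower in all 8 were 8 of the 83, against 2.61%. By adjusted p 0.104% of all genes tested were higher and 0.119% lower. Groups did not overlap for 0.0594% of all genes as higher and 0.475% as lower. These shares over all genes are not matched for abundance. Over the 7 settings 48 to 59 of the 83 had a positive value. The share of counts of the whole class was 3.21% ± 0.239 and 3.39% ± 0.243 (SD, n = 8, exact permutation test, adjusted p = 0.524).

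Nuclear genes of oxidative phosphorylation also went both ways. Of 81 members tested, the complex I subunit Ndufb4 was higher at 0.85 ± 0.18 and Ndufs5, another, lower at -0.77 ± 0.16 (log2 fold change ± SE, edgeR, adjusted p = 0.0345 and 0.0326). Over all genes tested 0.104% were higher and 0.119% lower by adjusted p. The list's median was 0.01. The remaining genes past the adjusted p were Ftl1, the ferritin light chain, Ppia, cyclophilin A, Ubxn2a, Ccdc85b and Emc4 among the lower, with log2 values of -0.90, -0.58, -0.87, -0.83 and -0.71. Among the higher were Ndufab1, the mitochondrial acyl carrier protein, at 0.62, Tmsb4x, thymosin beta 4, at 0.36, Dnaja2, a chaperone, at 0.50, Tspan31 at 0.60, Cbx6, a Polycomb gene, at 0.70 and NCBP2-AS2 at 0.70.

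Genes whose ends are found elsewhere in the transcriptome were frequent among the called genes, both lower and higher. In 8 of the 16 lower and 4 of the 14 higher genes, 50% or more of the 50-base windows in the last 300 bases of the longest transcript also occurred in a transcript of another gene, against 6.64% of the 13429 tested genes with a transcript. That last share is not matched for abundance. They included Gstp1 (100%), mt-Nd3 (98.8%), Gm8797 (92.0%), Eno1 (90.0%) and Ppia (80.1%) among the lower and Rpl31 and Tspan31 (100% each) among the higher. Pgk1 had none. Only uniquely aligned reads were counted, so the counts of genes with such copies are uncertain. Over all tested genes the median log2 fold change was -0.06 with such windows at 50% or more and -0.07 with none, and the part of shared sequence in the calls was not tested.

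The 30 genes were also looked at in the 8 libraries of 0.5 ng against the 8 of 50 ng, which share no library with the comparison above. Of the 16 lower genes 15 were lower there too, Rpl41 at 0.14 being the exception, and 10 passed an adjusted p under 0.05, against 7.33% of all genes tested as lower (6.86% with a change of at least 2-fold as well). Of the 14 higher genes all 14 were higher and 8 passed, against 1.08% of all genes. The filter on abundance used the 50 ng libraries, which are an arm of this contrast. Genes thus entered by their level in that arm, and the lower and higher shares over all genes may be shifted by it. Eef1a1 was at -1.17, mt-Nd3 at -1.17, Pgk1 at -1.17, Hbb-bs at 0.74 and n-R5-8s1 at 0.94. Eno1 at -0.24 and Dnaja2 at 0.01 did not pass. Zfp128 and Mre11a, absent or nearly so at 1 ng, had means of 3.83 and 3.33 CPM at 0.5 ng, carried by 2 and 3 libraries.

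**Figure D5:**
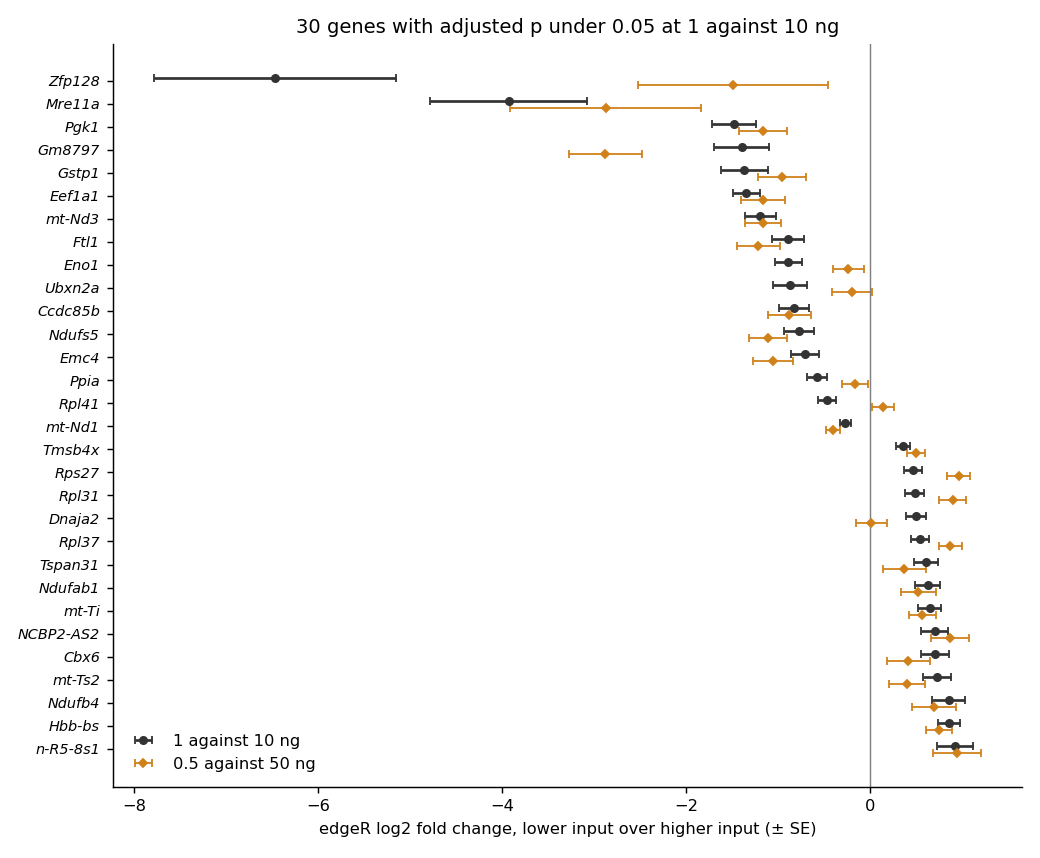
edgeR log2 fold changes (x axis, ± SE) of the 30 genes with an adjusted p under 0.05 at 1 ng against 10 ng (y axis), with black circles for that comparison and orange diamonds for 0.5 ng against 50 ng, which uses other libraries. All but Rpl41 lie on the same side of 0 in both, and Zfp128 moves from -6.47 to -1.49.

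In edgeR no single gene passed a test of whether the effect of input differed between genotypes. This interaction called 0 of 13471 genes in edgeR (Benjamini-Hochberg), with 821 at an unadjusted p under 0.05, and DESeq2 called 2 and limma voom 0. Gfap, the gene whose promoter drives the transgene, was at 6.77 to 68.2 CPM over the 10 ng libraries and 8.18 to 76.5 CPM over those of 1 ng (log2 fold change 0.34 ± 0.33, SE, edgeR, adjusted p = 0.78). Microglia markers held 0.129% of counts at both amounts.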

How the data were processed

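Frontal cortex libraries of 10 ng and 1 ng input were grouped by the genotype and amount in the labels. The deposited table held raw counts per gene for 33000 genes, made by the authors, who trimmed poly(A) from single-end reads, mapped them to mm10 (STAR 2.4) and, with featureCounts, counted those aligned uniquely to a GENCODE gene. The submitters' processing notes name hg19 as the build, which their methods use for human samples. Whether counting used strand was not given in the sources used here. The deposited gene lengths were used only for descriptive checks. Gene types are those given in the deposited table, and coordinates are from GENCODE vM21 (GRCm38), to which 32593 identifiers matched.

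Total counts ran from 261378 to 9840302, so that 1 count was worth between 0.102 and 3.83 CPM. CPM was not corrected for length. Replicate libraries differed beyond counting noise (24 pairs, smallest chi-square per degree of freedom 4.19), so each counted as 1 replicate.

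Genes detected were compared with two-sided exact permutation tests over 12870 arrangements, at matched depth from the hypergeometric expectation. Levels were tested with edgeR 4.0.16 (R 4.3.3), TMM, quasi-likelihood, on the 13471 genes with a mean above 1 CPM at 50 ng, an amount outside the contrast, as the input effect averaged over genotypes, and the interaction in the same fit. Genes were called differentially expressed at a Benjamini-Hochberg adjusted p under 0.05 with an absolute log2 fold change over 1. Standard errors were worked out from the F statistic. Shares of counts were tested for 37 classes with exact permutation tests and Benjamini-Hochberg adjustment. The steps were tested on simulated data. DESeq2 1.42.0, the authors' tool, and limma 3.58.1 were alternatives. Python 3.11.15, numpy 2.4.6, pandas 2.3.3, scipy 1.17.1 and matplotlib 3.10.9 served for the rest.

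Genes named were the largest changes among differentially expressed genes moving the same way in all 8 comparisons by number, the 2 highest members of each list and the one nearest 5 CPM at 50 ng (in part), the highest genes at 0 in all 1 ng libraries, genes seen only at 1 ng, and Il6 and Gfap. Libraries, lists and rules were chosen with earlier results of these data known. The comparison of 0.5 ng with 50 ng, voom with a block and the check for shared sequence were added after seeing the data. The oligonucleotides are from the study's primer list.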

Additional observations from a re-analysis of the deposited data

Results flagged for a closer look

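In each genotype and amount the highest and lowest of the 4 libraries were compared with the others by Dixon's test for detected genes, class shares and the 30 called genes. Of 276 groups tested, 11 (3.99%) passed, and chance alone passes about 1 in 20. The choroid plexus markers of WT replicate 3 stood at 0.344% of counts at 10 ng (others 0.0265 to 0.0328%) and 0.343% at 1 ng (others 0.0204 to 0.0328%). Neuron markers stood at 0.909% in GFAP-IL6 replicate 2 at 10 ng (others 0.864 to 0.869%). Cytokines and chemokines stood at 0.134% in GFAP-IL6 replicate 3 at 1 ng (others 0.0907 to 0.0973%). Zfp genes were low in WT replicate 3 at 1 ng, at 0.419% (others 0.461 to 0.467%), and RIKEN models in WT replicate 2 at 1 ng, at 1.18% (others 1.32 to 1.33%). Mre11a was at 8.94 CPM in GFAP-IL6 replicate 4 at 10 ng (others 3.97 to 4.70) and at 0.655 CPM in WT replicate 1 at 1 ng, where the others had 0. Ccdc85b was at 68.5 CPM in GFAP-IL6 replicate 1 at 1 ng (next highest below 50, lowest 46.3), Dnaja2 at 238 CPM in WT replicate 2 at 10 ng (others 272 to 279) and Ndufb4 at 145 CPM in WT replicate 3 at 1 ng (others 89.0 to 92.8).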

How the results depend on the processing

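Detection fell under every minimum tried, but at matched depth the difference did not pass with at least 2 counts (-1604 genes, exact permutation p = 0.0538) or at least 5 counts (-853 genes, p = 0.418). With the replicate block both passed, lower in 8 of 8 (exact sign-flip p = 0.00781, the smallest it can give). With 1 number left out it was -2157 to -2102 genes at matched depth and -2060 to -1841 genes above 1 CPM. The number of differentially expressed genes, 7, became 55 with DESeq2 (3 higher, 52 lower), 3 with voom, 16 without a filter on low counts, 20 with voom and the replicate block, 4 without replicate 2 in both genotypes and 3 to 7 with 1 number left out. Other settings of scaling, depth and samples gave 5 to 8. The median log2 fold change of all genes was -0.07, and -0.23 under the replicate block, -0.20 with voom and -0.20 without a filter. The interaction, 0 genes, became 2 with DESeq2, 2 without a filter, 1 with voom and the replicate block and 0 to 1 with 1 number left out.

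Without replicate 2 in both genotypes the ratio was 1.58 for red blood cell markers, 1.82 for rRNA genes and 0.947 for solute carriers, none past the adjusted p (0.0801, 0.0801 and 0.107). For the rRNA genes the unadjusted p was 0.00216, the smallest that an exact permutation test of 6 against 6 can give. Over 37 classes this became 0.0801. With the replicate block (exact sign-flip test, adjusted p = 0.0413) neuron markers (0.944), glycolysis enzymes (0.883), ribosomal proteins (1.06) and mitochondrial tRNAs (1.38) passed as well, and the tRNAs also over counts outside mitochondrial genes (1.38). The replicate block also called 7 differentially expressed genes, 5 of them shared (Zfp128 and Mre11a were lost), and raised those by adjusted p alone to 61 higher and 40 lower. The labels do not state a pairing. Deviations of same-numbered libraries correlated at 0.0250 to 0.135, above 0.1 in 1 of 8, and over genes above 50 CPM at 0.0730 to 0.362, above 0.1 in 6 of 8, while each 1 ng library correlated best with its own number in 8 of 8, a hint from the data, not the design. The common biological CV was 0.206 at 10 ng with thinned counts, 0.240 to 0.263 with 1 number left out, and 0.671 to 0.690 at 1 ng. Of the settings run for the 30 called genes, 303 kept the call, 265 lost it and 0 reversed it. Depth limits the 1 ng libraries of replicate 2, where 1 count already exceeds 1 CPM.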
